A study of Mus musculus with 4 samples.

Results

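Ebf2, Cebpa and Fabp4 are genes of the fat cell lineage, and their chromatin accessibility was examined in mouse fibroblasts lacking either of 2 proteins. Every deposited region whose assigned gene was Ebf2, Cebpa or Fabp4 was taken, which gave 4 of the 28445 regions in the Rela table (1 for Ebf2, 1 for Cebpa and 2 for Fabp4) and 0 of the 5727 regions in the Kindlin-2 table. The genes were picked with their signal known, so their differences are descriptions. Accessibility was measured by ATAC-seq, in which the Tn5 transposase inserts sequencing adapters into open chromatin. The Rela groups were 3T3 cells, a mouse embryo fibroblast line, either Rela wild type or Rela knockout. The product of Rela, p65, is the NF-kB subunit that carries its main activation domain. The Kindlin-2 groups were kidney fibroblasts, either with floxed Kindlin-2 alleles or with Kindlin-2 knocked out. All cells were at passage 15 to 20 in medium with 10% bovine calf serum and had received no fat-inducing treatment that the labels mention. The labels used here do not name the 3T3 subline or the Cre used on floxed cells, and do not say whether a genotype was a single clone.

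Each genotype had 1 column of normalized signal although the design states 2 biological replicates, so no difference between genotypes below was tested. Brackets hold 95% intervals that cover counting error only, from counts implied by the values. As cells were measured in bulk, a site open in few cells and one partly open in many cannot be told apart. The Rela columns summed to 1386832 in wild type and 1458609 in knockout, with a median signal of 34 and 35 per region. The Kindlin-2 columns summed to 1655317 in floxed and 827408 in knockout cells, with a median of 16 in each. The region at the start of Rela held 21 with wild-type alleles and 27 in the knockout, which says nothing of a deletion further into Rela, and no region was assigned to Fermt2, the Kindlin-2 gene. Of 25 fibroblast and fat progenitor markers 15 had a region in the Rela table, while Col1a1, Col3a1, Dcn and Lum had none. These 15 genes had 16 regions, with 8 within 2-fold, 4 higher and 4 lower without Rela. Vim (110 and 108), Pdgfrb (44 and 34) and a Pdgfra region 3849 bp downstream of the start (58 and 57) were within 2-fold. S100a4 (46 and 133) was among the higher ones and Col5a1 (53 and 20) among the lower ones. None of 10 liver cell markers and none of 12 muscle, bone and cartilage markers had a region. The list of 12 leaves out Runx2, counted here among genes that hold back fat cell formation, whose promoter held 51 and 39.

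Fat cells form from fibroblast-like precursors in steps. EBF2 is a transcription factor that marks precursors of brown and beige fat and helps to recruit PPARgamma to brown fat genes. C/EBPalpha acts later, beside PPARgamma, to switch on and maintain the genes of mature fat cells. FABP4, also called aP2, carries fatty acids in the cytoplasm of mature fat cells and is a classical target of both factors. It is also made by macrophages and endothelial cells, and C/EBPalpha also serves in liver and myeloid cells.

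The Cebpa region covered the stretch just before the gene's start, so its sequence is shown as the part of the locus whose signal is described. A RefSeq promoter sequence (GRCm38.p6, the assembly behind mm10) was matched for 1 of the 3 genes, Cebpa, and not for Ebf2 or Fabp4. The 250 bases before the start of Cebpa, chr7:35119043-35119292 on the plus strand, lay inside the deposited region with all 250 bases. Capitals mark the TATAAA element and the matches, on either strand, to a loose NF-kB pattern of 3 G and 2 C with any 5 bases between them:
Cebpa: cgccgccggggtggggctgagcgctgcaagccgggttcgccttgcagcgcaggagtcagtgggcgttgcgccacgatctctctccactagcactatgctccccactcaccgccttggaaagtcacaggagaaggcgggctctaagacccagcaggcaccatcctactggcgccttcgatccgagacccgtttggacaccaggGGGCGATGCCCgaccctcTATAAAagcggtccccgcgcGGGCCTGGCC
The TATAAA element began 30 bases before the start, and 12.3% of 32536 distinct promoter sequences of this length hold TATAAA on either strand. The NF-kB pattern matched at 3 places, 2 of them overlapping at 48 and 47 bases and the other at 10 bases before the start. This pattern occurs in 46.0% of the promoters. No match was found to the EBF palindrome (in 0.787% of promoters), the C/EBP letters TTGCNNAA (9.57%), the AP-1 letters TGANTCA (6.73%), the DR1 element of PPAR and RXR dimers (0.0338%), CCAAT (33.8%) or GGGCGG (33.0%). The stretch was rich in G and C, at 66.4% against a median of 52.4%, and held 22 CG pairs against a median of 6.

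Ebf2 had the largest ratio of the 4 regions. Its single region, chr14:67234412-67234677, lay wholly inside the gene with its centre 1253 bp downstream of the start. Signal there was 3 in wild-type cells and 34 in cells without Rela. The ratio was 11.3 (4.48 to 48.4) and the log2 ratio, computed like all log2 ratios here with 1 added to each value, was 3.13. The wild-type value rests on about 4 implied counts and the knockout value on 36. In wild type the site was among the weakest, with 4.95% of all tested regions below it, while in the knockout it stood near the middle of the table, with 47.6% below. No other region touched the 197626 bp of the Ebf2 gene body in the table.

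Cebpa was also higher without Rela. Its region, chr7:35118804-35119292, ended at the base before the gene's start, with its centre 245 bp upstream. Wild-type signal was 22 and knockout signal 66, about 32 and 70 implied counts. This made a ratio of 3 (1.97 to 4.77) and a log2 ratio of 1.54. The knockout value exceeded that of 74.4% of regions and the wild-type value that of 32.3%. No region touched the Cebpa gene body itself.

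Fabp4, the gene that acts last in the sequence, differed in opposite directions at its 2 regions. The promoter region, chr3:10208573-10208737, had its centre 79 bp upstream of the start and a signal of 16 with Rela and 5 without it. It was 3.2-fold lower in the knockout (1.23 to 11.1), with a log2 ratio of -1.50, on about 23 and 5 implied counts. At 164 bp it was also one of the narrowest regions, with 0.0565% of the table narrower. The second region, chr3:10211748-10212147, lay 3372 bp upstream, with a wild-type signal of 16 and a knockout signal of 39. Its ratio was 2.44 (1.45 to 4.32) and its log2 ratio 1.23. Of 723 genes with at least 2 tested regions, 390 had a region that differed by at least 2-fold. Among the 723, 25 (3.46%) had 1 region at least 2-fold higher and another at least 2-fold lower. Fabp4 was chosen on its ratios, so nothing is read from this share. Relative to the median of chromosome 3, the upstream Fabp4 region was within 2-fold (log2 ratio 0.70).

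**Figure D1:**
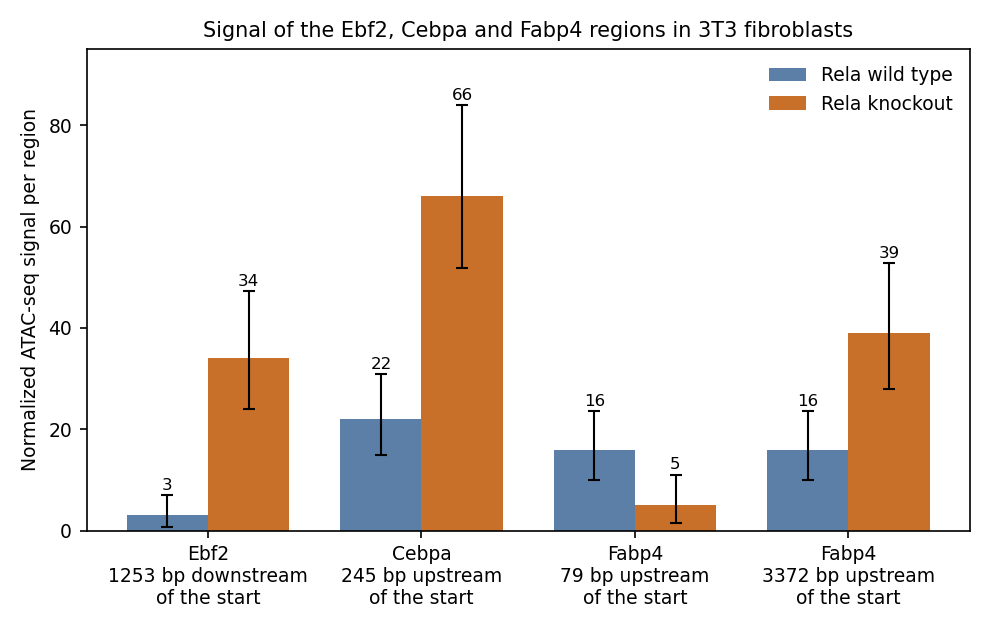
Normalized ATAC-seq signal per region (vertical axis, from 0) of the 4 regions of Ebf2, Cebpa and Fabp4 in Rela wild-type and Rela knockout 3T3 cells, 1 value per genotype; error bars are exact 95% Poisson intervals for counting error only. The knockout bar is higher at Ebf2 (34 against 3), Cebpa (66 against 22) and the upstream Fabp4 region (39 against 16), and lower at the Fabp4 promoter (5 against 16).

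All 4 regions entered with a mean signal of at least 1, and all 4 were past 2-fold, 3 higher and 1 lower in the knockout. Differences of this size were common in the table: 43.3% of 28332 tested regions were past 2-fold, 22.4% higher and 21% lower. The share was 26.1% among 8061 promoter regions, those with a centre within 2500 bp of a start, 40.7% among regions of named genes further out, and 60.5% among the 7083 regions with the lowest mean signal, where the Ebf2 region and the Fabp4 promoter lay. Since the genes were chosen on these ratios, nothing is read from the count. Ebf2's log2 ratio was above that of 94.8% of regions, Cebpa's above 85.1%, the upstream Fabp4 region's above 81.4%, and the Fabp4 promoter's above 12.4%.

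Levels of the 3 genes are set against each other per length, since the regions differ in width. In wild type the Fabp4 promoter had the highest density, 9.76 signal units per 100 bp (6.07 to 14.4), followed by Cebpa with 4.51 (3.06 to 6.32), the upstream Fabp4 region with 4.01 (2.50 to 5.91) and Ebf2 with 1.13 (0.281 to 2.64). The intervals of each neighbouring pair in this order overlapped, while that of Ebf2 lay wholly below those of Cebpa and the Fabp4 promoter. In the knockout the order was Cebpa with 13.5 (10.6 to 17.2), Ebf2 with 12.8 (9.03 to 17.8), the upstream Fabp4 region with 9.77 (7.0 to 13.2) and the Fabp4 promoter with 3.05 (0.939 to 6.75). Here the first 3 overlapped and the Fabp4 promoter lay below all of them. Per length the Fabp4 promoter was thus first of the 4 regions in wild type and last in the knockout. By signal per region Cebpa was first in wild type, with 22 against 16 at the narrow Fabp4 promoter.

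The surroundings of the 3 genes were compared because whole chromosomes were shifted in this table. For reading the neighbour counts of all 3 genes, 22.4% of all tested regions were at least 2-fold higher and 21% lower. Around Ebf2 the neighbours mostly pointed the other way: of 28 other regions with a centre within 1 Mb, 4 were higher by 2-fold or more, 10 were lower and 14 were within 2-fold. Their median log2 ratio was -0.61, against -0.29 for chromosome 14 and 0 for all tested regions. One of the 28 had a ratio at or above that of Ebf2. The nearest region, without an assigned gene and 45.8 kb upstream, held 139 and 90. The closest region on the other side, 390 kb away and also without an assigned gene, held 20 and 44 and so was higher. The closest region beyond Ebf2 with a gene symbol, that of the cell division gene Cdca2, held 29 and 5. On the upstream side the closest with a gene symbol, those of Bnip3l (155 and 133) and Gm5464 (113 and 125), were within 2-fold. Relative to the neighbours within 1 Mb, Ebf2's log2 ratio was 3.74.

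Around Cebpa most neighbours were within 2-fold, 17 of 23, with 5 higher and 1 lower. Their median log2 ratio was 0.15, against 0.20 for chromosome 7. Of the 23, 4 had a ratio at or above that of Cebpa. A region 8.21 kb beyond the Cebpa region held 17 and 19. The closest region upstream, without an assigned gene, held 47 and 16 and so was lower (log2 ratio -1.50). The next regions upstream, also without an assigned gene, were higher by more than Cebpa. They held 14 and 57 (log2 ratio 1.95) and 10 and 90 (3.05). The nearest regions with a gene symbol on either side lay 207 kb and 215 kb away. They were those of Pepd, which encodes a peptidase that splits proline dipeptides (31 and 28), and Rhpn2 (137 and 100), both within 2-fold. Relative to the neighbours, Cebpa's log2 ratio was 1.39.

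Around Fabp4 the chromosome itself stood higher in the knockout. The median log2 ratio was 0.53 over chromosome 3, and 0.50 over the 29 other regions within 1 Mb of the Fabp4 promoter (its upstream region included), of which 11 were higher, 5 lower and 13 within 2-fold. Beyond the upstream Fabp4 region, the next regions with a gene symbol lay 123 kb and 143 kb from the Fabp4 promoter. They were those of Impa1, which encodes inositol monophosphatase (49 and 58), and Zfand1 (23 and 33), both within 2-fold. Relative to the chromosome median, the log2 ratio was -2.04 at the Fabp4 promoter and 0.70 at the upstream region, which was then within 2-fold. Relative to the neighbours within 1 Mb it was -2.01 and 0.97.

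**Figure D2:**
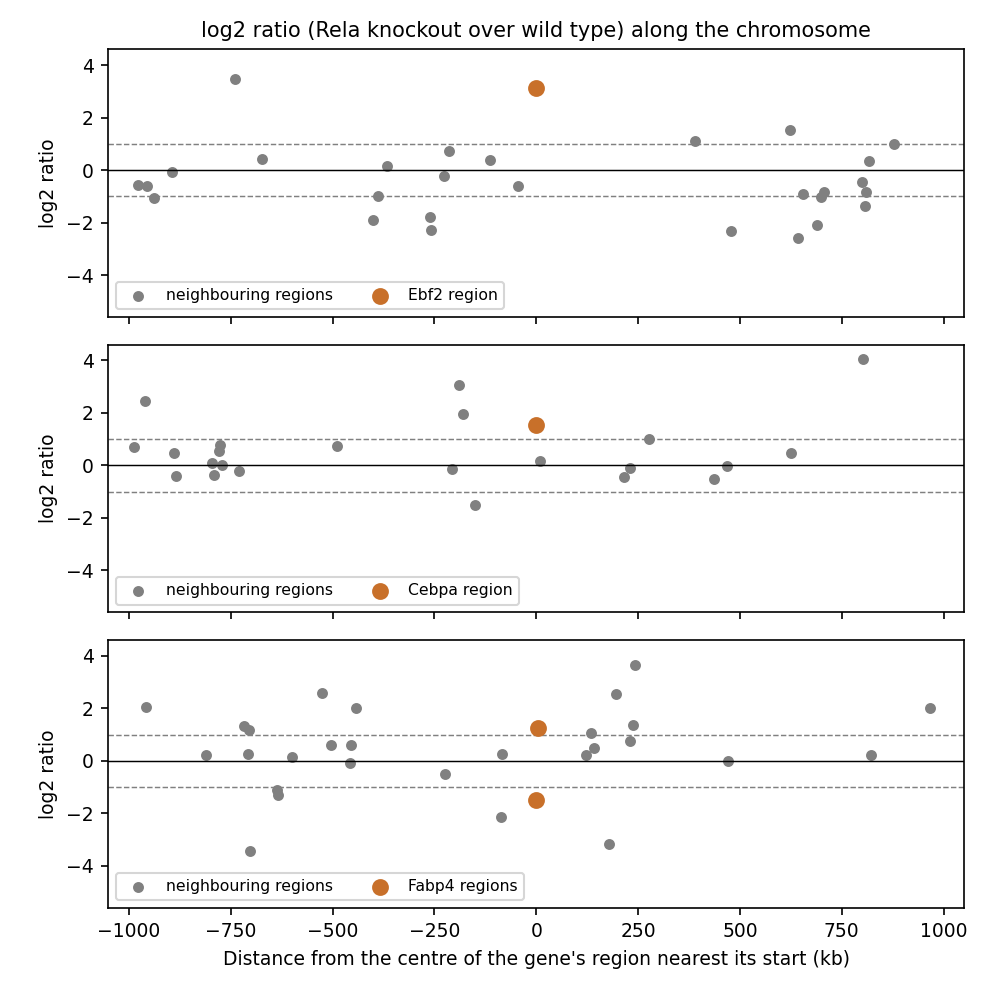
log2 ratio of Rela knockout over wild-type signal (vertical axis) of regions within 1 Mb, by distance in kb from the centre of the gene's region nearest its start (horizontal axis), for Ebf2, Cebpa and Fabp4; each point is 1 region, coloured points are the regions of the named gene, and dashed lines mark 2-fold. Ebf2, at 3.13, stands above all but 1 of its 28 neighbours, whose median is -0.61, and the Fabp4 regions, at -1.50 and 1.23, lie on either side of 0.

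The other members of each gene's protein family differed in their coverage. All 4 EBF genes had a region. Ebf3, 53 bp downstream of the start, held 5 and 45, a ratio of 9 (4.19 to 24.5), and so resembled Ebf2 in going from a low to a middling signal. The Ebf1 promoter held 42 and 72, a ratio of 1.71 (1.22 to 2.47), while Ebf4, whose region lay 3766 bp upstream, held 44 and 30. Of 6 C/EBP genes Cebpa and Cebpd had a region. Cebpd encodes C/EBPdelta, which acts early in fat cell formation and helps to switch on Cebpa. Its promoter held 74 and 35, so it was 2.11-fold lower (1.43 to 3.14) where Cebpa was 3-fold higher, and with a pseudocount of 5 it was within 2-fold (log2 ratio -0.98). Of 9 FABP genes Fabp4 was the 1 with a region, although Fabp5, Fabp9 and Fabp12 lie in the same gene cluster.

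**Figure D3:**
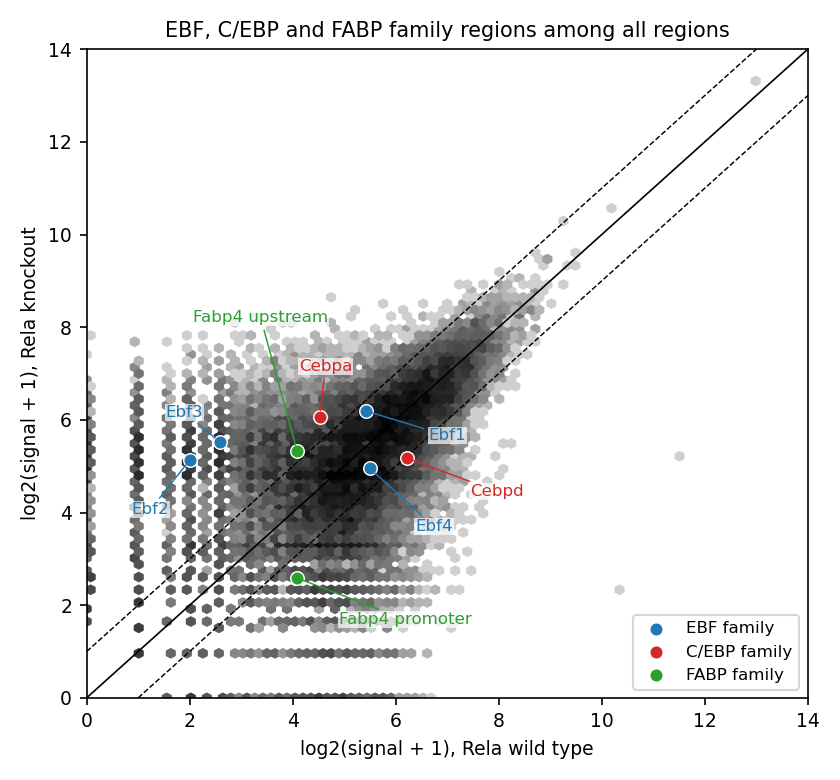
log2(signal + 1) in Rela wild-type (horizontal axis) and Rela knockout cells (vertical axis) for all 28332 tested regions, as grey hexagons darker where more regions fall, with regions of the EBF, C/EBP and FABP families as coloured points; the solid line marks equal signal and dashed lines 2-fold. Ebf2 and Ebf3 lie far above the upper dashed line, Cebpa and the upstream Fabp4 region just above it, Cebpd and the Fabp4 promoter below the lower one, and Ebf1 and Ebf4 between them.

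Among 25 transcription factors and signals that promote fat cell formation, 13 had regions in the Rela table, 15 in all. Of these 15, 4 were at least 2-fold higher and 2 lower, 40% in all, with a median log2 ratio of 0.46. For reading these list counts, 25.5% of the 7994 tested regions with a gene symbol were past 2-fold. Without Cebpa and Ebf2 the count was 2 higher and 2 lower of 13, with a median of 0.36. Besides Ebf3, the higher ones included a region 2018 bp downstream of the start of Klf4, an early factor of fat cell formation (7 and 30, ratio 4.29, 2.13 to 10.1), while the Klf4 promoter held 76 and 64. The lower ones were Cebpd and a region 2111 bp downstream of the start of Egr2, also called Krox20, another early factor (32 and 10). Within 2-fold were Klf5 (70 and 53), Klf9 (210 and 289 at the promoter) and the glucocorticoid receptor gene Nr3c1 (20 and 26). Pparg, the central factor of the lineage, had no region, nor had Cebpb, Rxra, Srebf1 or Zfp423.

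Genes that hold back fat cell formation had 18 regions from 15 of 26 genes, with 1 higher, 2 lower and 15 within 2-fold, and a median log2 ratio of -0.39. The higher one was the promoter of Klf3, which encodes a repressor of Cebpa (23 and 133, ratio 5.78, 3.91 to 8.59). The lower ones were the promoter of Smad3, which relays TGF-beta signals (54 and 11, 4.91-fold, 2.57 to 9.56), and a region 3309 bp downstream of the start of Klf7 (42 and 18). The Klf7 promoter held 96 and 90, and a further Klf3 region, 2934 bp downstream of the start, held 16 and 15. Zfp521, listed under its older symbol Znf521 and known to oppose EBF factors, held 89 and 62 at its promoter. The Dlk1 gene, which encodes the preadipocyte factor Pref-1, had no region.

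Genes of fat storage and secretion, to which Fabp4 belongs, had 22 regions from 17 of 42 genes. Of these 2 were higher, 6 lower and 14 within 2-fold, with a median log2 ratio of 0.16. Beside Fabp4 the higher one was a region 1895 bp upstream of Lpin1, which encodes the phosphatidate phosphatase lipin-1 (20 and 59, ratio 2.95, 1.88 to 4.79). The lower ones were led by Angptl4, a secreted lipase inhibitor and PPAR target (76 and 12 at 2012 bp downstream, 6.33-fold, 3.45 to 11.9). A region 4175 bp upstream of Gpam, the first enzyme of triglyceride synthesis, held 112 and 36. The promoter of Abhd5, an activator of triglyceride breakdown, held 122 and 45, and that of the caveolin gene Cav1 118 and 49. Further Cav1 regions, 1455 bp (50 and 50) and 3137 bp (31 and 25) downstream of the start, were within 2-fold. Promoters of the lipid synthesis genes Scd1 (64 and 121) and Fasn (98 and 179) and of the insulin receptor gene Insr (68 and 125) were higher but within 2-fold. Adipoq, Lep, Plin1, Lpl, Cd36 and Slc2a4, which mark mature fat cells, had no region.

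Genes of heat-producing fat, the setting in which Ebf2 is best known, had 6 regions from 6 of 28 genes. Ebf2 and the promoter of Ppara, a nuclear receptor for fatty acids (12 and 57, ratio 4.75, 2.70 to 8.34), were higher, and a region 3261 bp downstream of the start of the potassium channel gene Kcnk3 was lower (76 and 12). Without Ebf2 the median log2 ratio of this list was 0.02. Ucp1, Prdm16, Ppargc1a, Cidea and Dio2 had no region. The share past 2-fold was 16.7% for the repressors, 36.4% for storage and secretion and 50% for heat-producing fat, where it rests on 3 of 6 regions. The last 2 shares include Fabp4 and Ebf2, which were chosen on their ratios. Without Fabp4, 1 of 20 storage and secretion regions was higher and 5 were lower. Without Ebf2, 1 of 5 regions of heat-producing fat was higher and 1 lower.

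**Figure D4:**
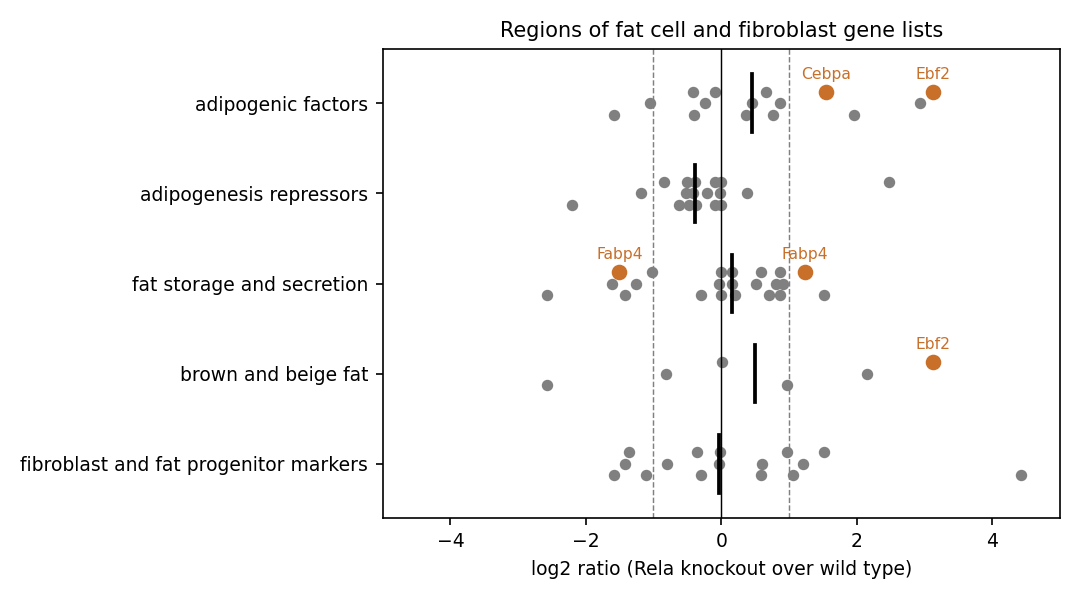
log2 ratio of Rela knockout over wild-type signal (horizontal axis) for each region of 5 gene lists (rows); points are regions, staggered for legibility, coloured points are Ebf2, Cebpa and Fabp4, black bars are list medians and dashed lines mark 2-fold. The medians run from -0.39 for the repressors to 0.50 for brown and beige fat, while single regions spread to both sides of 0 in each list.

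In the deposited gene annotation, 107 genes carried a term on fat cell differentiation, all 3 genes among them; this set was chosen after its values were seen. Over their 129 regions 16 were higher and 19 lower, 27.1% in all, with a median log2 ratio of -0.03. The PPAR signalling pathway held 25 genes, Fabp4 among them, with 5 of 27 regions higher and 6 lower, 40.7% in all, and a median of 0.12. Beside both sets stand the 25.5% past 2-fold among tested regions with a gene symbol. The fat cell differentiation set includes all regions of the 3 genes, and the PPAR set includes the Fabp4 regions. These regions were chosen on their ratios and are all past 2-fold, so they raise both shares. Without them the median log2 ratio was -0.05 over 125 regions for fat cell differentiation and 0.12 over 25 for PPAR signalling.

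Markers of cells that also use Cebpa or Fabp4 were mostly without regions. Of 12 macrophage and leukocyte markers 4 had 5 regions, whose summed signal was 98 in wild-type and 119 in knockout cells. Of these 5, 2 were past 2-fold, both higher: Laptm5 (8 and 46) and a weak region of Csf1r (5 and 11). Within 2-fold were Cd68 (14 and 12), the Csf1r promoter (15 and 17) and a region 4633 bp upstream of the leukocyte marker Ptprc. The Ptprc region was lower (56 and 33, ratio 0.589, 0.387 to 0.891). Adgre1, Itgam, Spi1 and Lyz2, which define these cells, had none. Of 12 endothelial markers Flt1 alone had a region (84 and 57), and Pecam1, Cdh5 and Tek had none. Of 11 epithelial markers 3 had a region, and all 3 were past 2-fold. Pax8, at 4401 bp upstream, was lower (111 and 26), and Krt19 (8 and 19) and Cdh16 (2 and 7) were higher. Their summed signal was 121 in wild type and 52 in the knockout, and Epcam, Cdh1, Krt8 and Krt18 had no region. Among fibroblast and fat progenitor markers 4 of 16 regions were higher and 4 lower. That is 50%, beside 25.5% of tested regions with a gene symbol. The progenitor marker Cd34 had the highest ratio, 42 (10.4 to 2469), from 1 in wild-type to 42 in knockout cells. Also higher were S100a4 (46 and 133), Fbln1 (12 and 29) and Postn (10 and 22). The lower ones were Col5a1 (53 and 20), Col6a1 (38 and 12), Dpt (23 and 8) and a region of Col1a2 (40 and 18). The Col6a1 region lay 4349 bp upstream of the start and that of Col1a2 2707 bp downstream. The part of these cell type markers in the Ebf2, Cebpa and Fabp4 differences was not tested.

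Other promoters with nearly the same pair of values were easy to find, as likeness rests on only 2 values per region. Of 6830 promoter regions of other genes, Pxdn, Cxcr6 and Nrg2 came closest to Ebf2 in distance on the log2 scale (Pxdn at the same 3 and 34). Mx1 (23 and 67), Lrrn4cl and Trim68 came closest to Cebpa. Saxo2 (16 and 5), Bzw1 and Itgae came closest to the Fabp4 promoter, and St6galnac4 (16 and 40) and Glb1l were among the closest to its upstream region.

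In the kidney fibroblasts no region was assigned to any of the 3 genes, and none overlapped the 4 positions described above, so Kindlin-2 knockout and floxed cells could not be compared there. Such a gap was common, since 16.2% of tested Rela regions overlapped a Kindlin-2 region by at least 1 bp. The nearest Kindlin-2 regions lay 215 kb from the Cebpa position, at Rhpn2 (8 in floxed and 6 in knockout cells), 260 kb from that of Ebf2 (18 and 24) and 82.5 kb from the Fabp4 promoter (5 and 7), and each was within 2-fold. Of all 5727 regions in these cells 25.4% were past 2-fold, 16.2% higher and 9.27% lower. Of the factors that promote fat cell formation Klf4 (8 and 12), Klf5 (19 and 15) and Klf9 (11 and 12) had a region here, all within 2-fold. Among 5 measured repressors the Klf3 promoter was the 1 past 2-fold, with 15 in floxed cells and 6 without Kindlin-2, and it was within 2-fold with a pseudocount of 5. Elovl6 (11 and 17), Plin2 (26 and 28) and Esrra (26 and 15) were the measured genes of fat storage and heat production. They were within 2-fold. The Elovl6 region lay 4025 bp downstream of the start and that of Plin2 4236 bp upstream. Among cell type markers the leukocyte gene Ptprc (10 and 27) and the fibronectin gene Fn1 (26 and 12) had a region, both past 2-fold. The Ptprc region lay 4673 bp upstream of the start. No gene of the EBF, C/EBP or FABP families had a region in this table.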

How the data were processed

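Per the labels' protocols, 50000 cells entered each ATAC-seq library. Per the submitters' processing notes, which give no role or order, the build was mm10 and the tools were STAR 2.4.2a, Trimmomatic 0.33, bedtools, Picard 1.136, DESeq2, deepTools, MACS2 and FastQC. The authors deposited 1 table per knockout, whose values are a score: background-corrected, DESeq-normalized signal in whole numbers, per the labels' name of each table. They are not read counts, and levels of the 2 tables were not compared. The tables also hold the fraction of each region inside its gene, as deposited by the authors. The sources used here do not say how replicates were combined, whether reads were shifted for the Tn5 offset, how peaks became regions or whether starts count from 0 or 1.

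Ratios are log2((knockout + 1)/(control + 1)), over regions with a mean of at least 1; 113 Rela regions fell below it. With 1 value per genotype no test was made, and a region past 2-fold is one with a log2 ratio of at least 1 in size. The frequency of each whole value fitted counts scaled by 0.683 in Rela wild type (97.1% of the deviance) and 0.949 in Rela knockout (90.3%); values divided by these factors gave the implied counts and the exact (Clopper-Pearson and Poisson) 95% intervals. They take each value as a scaled count and leave out the error of the background correction. The scripts were tested on simulated data and used Python 3.11.15 with SciPy 1.17.1. The 3 genes, 13 gene lists and motif letters were chosen with earlier results of these data known. Named genes were all regions of the 3 genes, all family members with a region, up to 4 genes per list and direction past 2-fold, the nearest neighbours and the closest value pairs; other genes are named to show what is within 2-fold or has no region, and these were chosen after their values were seen. Other pseudocounts, filters, thresholds, windows and scalings were tried. One gene that this rule picks by its value pair is not reported here.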

Additional observations from a re-analysis of the deposited data

How the results depend on the processing

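The log2 ratios of the 4 regions kept their sign and stayed inside their counting intervals under each of 5 alternatives that could move them. They lay between 2.29 and 3.74 for Ebf2, 1.35 and 1.56 for Cebpa, -2.04 and -1.07 for the Fabp4 promoter, and 0.70 and 1.26 for the upstream Fabp4 region, which alone was within 2-fold in some (0.70 with chromosomes centred, 0.97 with neighbours centred). Scaling the columns to the same median ratio moved none of the 29 results, since that median was already 0. A 3-fold threshold left 4153 higher and 3308 lower Rela regions, and 446 higher and 149 lower Kindlin-2 regions. At 3-fold 2 regions passed among storage genes, 2 among fibroblast, 1 among macrophage and 1 among epithelial markers. The C/EBP family had 0 and the FABP family 0 there, as had Kindlin-2 repressors (0), fibroblast markers (0) and macrophage markers (0). In the Kindlin-2 table a pseudocount of 5 gave 543 higher and 335 lower, quantile scaling 570 higher, and a mean of at least 10 left 387 higher. With a pseudocount of 5 the regions past 2-fold were 1 in the C/EBP family, 1 among macrophage and 1 among epithelial markers, and 0 among Kindlin-2 repressors and 0 among Kindlin-2 fibroblast markers. With chromosomes centred they were 1 in the FABP family, 5 among fibroblast markers, 1 among macrophage and 1 among epithelial markers. Quantile scaling left 1 macrophage region, and so did a mean of at least 10 (1). In a window of 0.5 Mb, 8 neighbours of each Fabp4 region and 6 of Ebf2 were past 2-fold, and in 2 Mb 24 of Ebf2; these windows hold fewer or more regions. For the other settings the cause was not tested. Apart from the scaling that moved nothing, 159 of 191 alternative values stayed near the main one, meaning inside the counting interval for the 4 regions and within 1.5 times for a count. The Kindlin-2 table gave no value for the 3 genes under any alternative. No paired analysis was possible because each genotype had 1 column. The Ebf2 wild-type value rests on about 4 implied counts, and its ratio has the widest interval of the 4 regions.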
